A study of Mus musculus with 16 samples.

Results

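Grap2, Emb, Itgal, Ramp1 and Fcer1g are 5 genes known from other cells of the blood that the B cell factor Pax5 is known to hold down in B cell precursors. They were taken by name, and each was read from the array feature (probe set) that the annotation assigns to that gene alone, beside the Pax5 level of the same array. All 5 had exactly 1 such probe set, and together they are 5 of 19938 genes measured.

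Pax5 is a paired-box transcription factor that commits early lymphoid cells to the B lineage. It switches on genes of B cell signalling, and it keeps down genes that belong to T cells, myeloid cells and natural killer (NK) cells, which are called lineage-inappropriate in B cells. Among the members, Emb encodes embigin, a membrane glycoprotein that escorts lactate transporters to the cell surface. Ramp1 encodes a single-pass protein that pairs with the calcitonin receptor-like receptor to bind the neuropeptide CGRP. Itgal encodes the alpha chain of the integrin LFA-1, with which leukocytes adhere to ICAM proteins. Fcer1g encodes the common gamma chain that carries the signal of several Fc receptors in myeloid, mast and NK cells. Grap2 encodes Gads, a cytoplasmic adaptor that joins Lcp2 (SLP-76) to Lat below the T cell receptor.

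The promoters of Emb and Grap2 are printed because these were the members that passed the test against wild-type cells. Both are the 250 bases before a RefSeq transcript start, on the plus strand of mouse build GRCm38.p6, at chr13:117220323-117220572 for Emb and chr15:80623233-80623482 for Grap2. The Grap2 window lies inside the gene's span, before a start that is not its first.
Emb: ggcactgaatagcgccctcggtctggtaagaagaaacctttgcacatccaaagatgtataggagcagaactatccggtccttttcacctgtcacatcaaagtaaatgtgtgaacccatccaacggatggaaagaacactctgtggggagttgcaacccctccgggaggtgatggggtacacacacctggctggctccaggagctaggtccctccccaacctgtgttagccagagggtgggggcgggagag
Grap2: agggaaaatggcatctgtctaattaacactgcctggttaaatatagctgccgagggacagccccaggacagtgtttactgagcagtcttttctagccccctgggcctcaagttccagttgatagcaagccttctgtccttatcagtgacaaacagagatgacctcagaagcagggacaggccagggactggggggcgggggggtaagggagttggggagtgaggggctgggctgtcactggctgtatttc
Of the 5 members, 4 had a RefSeq promoter entry. The letters GCGTGAC, a core shared by Pax5 recognition sequences, were searched on both strands (GTCACGC on the other) and occurred in 1.78% of 32851 promoter windows of the same length. The shorter GCGTGA, which lies within the longer motif and was likewise searched on both strands, occurred in 5.56%. Neither string was present in the 4 members' windows.

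The study asks about Bank1 as a tumor suppressor in leukemia of B cell precursors, and total RNA from mouse marrow was hybridised to 16 arrays. Of these, 6 came from leukemic total bone marrow of mice with the genotype Pax5+/- (Pax5 leukemia below), 6 from leukemic total bone marrow of Bank1+/- + Pax5+/- mice (Bank1/Pax5 leukemia), and 4 from WT pro-B and pre-B cells of the marrow. Both leukemia groups thus carry the heterozygous Pax5 loss. The labels give no age, strain or sex, and the mice were kept in a conventional facility where common pathogens circulated. One label field also calls the WT cells leukemic, against their title, source, tissue and genotype, and the design text names 3 WT mice where 4 WT arrays carry replicate labels. Whole leukemic marrow is thus set against a pro-B and pre-B cell fraction, so that genotype, leukemia and cell content cannot be told apart in either comparison with WT. The labels do not say how that fraction was isolated.

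Values are log2 intensities. The median intensity of an array was 6.58 to 6.71, and the number of arrays limits the precision. Pax5 itself lay between 11.85 and 12.12 in WT cells, between 7.52 and 12.21 in Pax5 leukemia and between 7.85 and 11.85 in Bank1/Pax5 leukemia. It was under 9 on 3 leukemia arrays, which were Pax5 array 3 and Bank1/Pax5 arrays 1 and 5. Its difference from WT did not pass the test in Pax5 leukemia (-0.98, adjusted p = 0.446) or in Bank1/Pax5 leukemia (-2.18, adjusted p = 0.101), where the latter passed in 4 of 26 alternatives. These were the fits without Bank1/Pax5 array 2 (-2.59, adjusted p = 0.0446), without Pax5 array 3 (adjusted p = 0.0283), without the 3 arrays of low Pax5 (-1.26, adjusted p = 0.0407) and with array weights (adjusted p = 0.0124). With a covariate for markers of other cells it was -0.79 (adjusted p = 0.483). Bank1 lay between 7.26 and 9.52 in Bank1/Pax5 leukemia, between 8.80 and 11.09 in Pax5 leukemia and around a median of 9.20 in WT cells, so the groups overlapped. Bank1/Pax5 leukemia lay below Pax5 leukemia in Bank1 (a difference of -1.54, interval -2.35 to -0.74, adjusted p = 0.0265). That call ended in 8 of 26 alternatives (adjusted p 0.0504 to 0.168), among them those without Bank1/Pax5 array 5 or Pax5 arrays 2, 4 and 5. Against WT, Bank1 differed by 1.01 in Pax5 leukemia (adjusted p = 0.0964), which passed without Pax5 array 1 (adjusted p = 0.0189) and with array weights (0.00644), and by -0.53 in Bank1/Pax5 leukemia (adjusted p = 0.404). As markers of the labelled cells, the median of 11 B cell precursor markers was 12.52 to 12.63 in WT cells, 9.51 to 12.72 in Pax5 leukemia and 9.09 to 12.47 in Bank1/Pax5 leukemia.

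Markers of other cells were measured beside these. The median of 11 monocyte and macrophage markers was 6.39 to 6.63 in WT cells, 8.17 to 10.20 in Pax5 leukemia and 9.31 to 11.67 in Bank1/Pax5 leukemia. The median of 13 neutrophil markers ran from 7.33 to 10.09, from 7.05 to 11.89 and from 7.59 to 12.66 in the same order. NK markers went the other way, with 10 genes at a median of 8.34 to 9.06 in WT cells against 5.50 to 5.69 in Pax5 leukemia and 5.75 to 8.85 in Bank1/Pax5 leukemia. The median of 7 megakaryocyte and platelet markers was 6.83 to 7.16 in WT cells, 8.17 to 10.65 in Pax5 leukemia and 8.91 to 11.06 in Bank1/Pax5 leukemia. Against WT, 5 and 6 of the 7 were called higher, where 9.53% and 6.8% of all genes were. Dendritic cell markers ran from 9.41 to 9.80 in WT cells against 6.46 to 9.18 and 6.51 to 9.45, and the group medians of erythroid markers were 9.47 in WT cells, 7.32 in Pax5 leukemia and 8.86 in Bank1/Pax5 leukemia. The median of 12 T cell markers was 6.46 to 6.65 in WT cells, 5.92 to 6.44 in Pax5 leukemia and 6.37 to 7.28 in Bank1/Pax5 leukemia. Between the leukemias 2 of these 12 were called higher in Bank1/Pax5 leukemia and 0 lower, where 1.71% and 5.0% of all genes were. Mast cell and basophil markers ran from 5.47 to 6.21, from 5.31 to 7.23 and from 5.47 to 7.61 in the same order of groups. In such bulk samples, fewer cells of a type and less RNA per cell cannot be told apart.

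All 5 members were detected well above the median probe set (6.96) in WT precursors, with group means from 8.30 for Ramp1 to 10.42 for Fcer1g. The WT arrays also carried RNA of other cells, such as Siglech of dendritic cells (mean 11.22) and Ncr1 of NK cells (mean 9.47), and their part in the WT levels of the members was not tested. The differences that follow are between groups within 1 probe set, and levels of different genes are not compared.

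**Figure D1:**
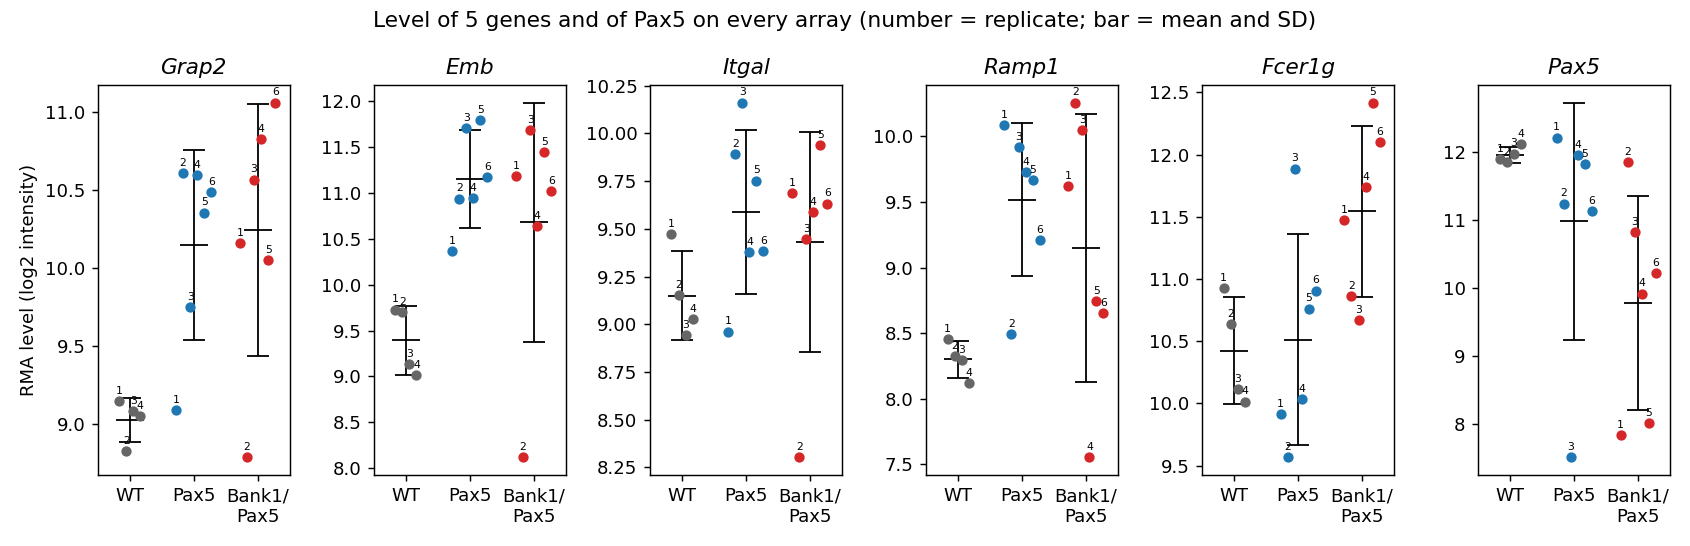
Log2 intensity of the 5 genes and of Pax5 on each of 16 arrays, with points numbered by replicate and bars for the mean and SD of each group (4 WT, 6 Pax5 leukemia, 6 Bank1/Pax5 leukemia). The 6 Pax5 leukemias sit above all 4 WT arrays for Emb and Ramp1, and Bank1/Pax5 array 2 is the lowest leukemia for Grap2, Emb and Itgal.

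Against WT cells, the members called higher in Pax5 leukemia were Emb and Grap2. Emb, the lactate transporter escort, was 3.39-fold higher and Grap2, the adaptor, 2.17-fold higher. This is 2 of 5 members called in the higher direction by limma at an adjusted p under 0.05, where 9.53% of all genes were called higher and 23.3% were called in either direction. At an unadjusted p under 0.05, 3 of 5 members were higher (Grap2, Emb and Ramp1), as were 2878 of 19938 genes. The groups did not overlap for Emb and Ramp1, against 11.6% of all genes whose Pax5 leukemia arrays were all above the WT arrays. The median difference of the 5 members was 1.12, and that of all genes -0.05.

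In Bank1/Pax5 leukemia Grap2 was the 1 of 5 members called higher in limma, at 2.32-fold, where 6.8% of all genes were called higher and 19.6% in either direction. At an unadjusted p under 0.05, 3 of 5 members were higher (Grap2, Emb and Fcer1g), as were 2487 of 19938 genes. Emb was 2.44-fold and Fcer1g 2.18-fold higher without a call. No member separated the Bank1/Pax5 arrays from the WT arrays without overlap, against 7.35% of all genes that lay wholly above. The median difference of the members was 1.12, and that of all genes -0.03. Both comparisons use the same 4 WT arrays.

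Between the leukemias none of the 5 members passed the test in limma, where 6.7% of all genes were called (1.71% as higher in Bank1/Pax5 leukemia), and 1 member (Fcer1g) had an unadjusted p under 0.05. The median difference of Bank1/Pax5 minus Pax5 leukemia was -0.16 for the members and 0.02 for all genes. All 5 overlapped between the leukemias, as did all but 2.7% of genes (0.833% lay wholly higher and 1.87% wholly lower in Bank1/Pax5 leukemia). The 5 members did not pass in the fits with array weights, with a variance trend or with the leukemias alone either.

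**Figure D2:**
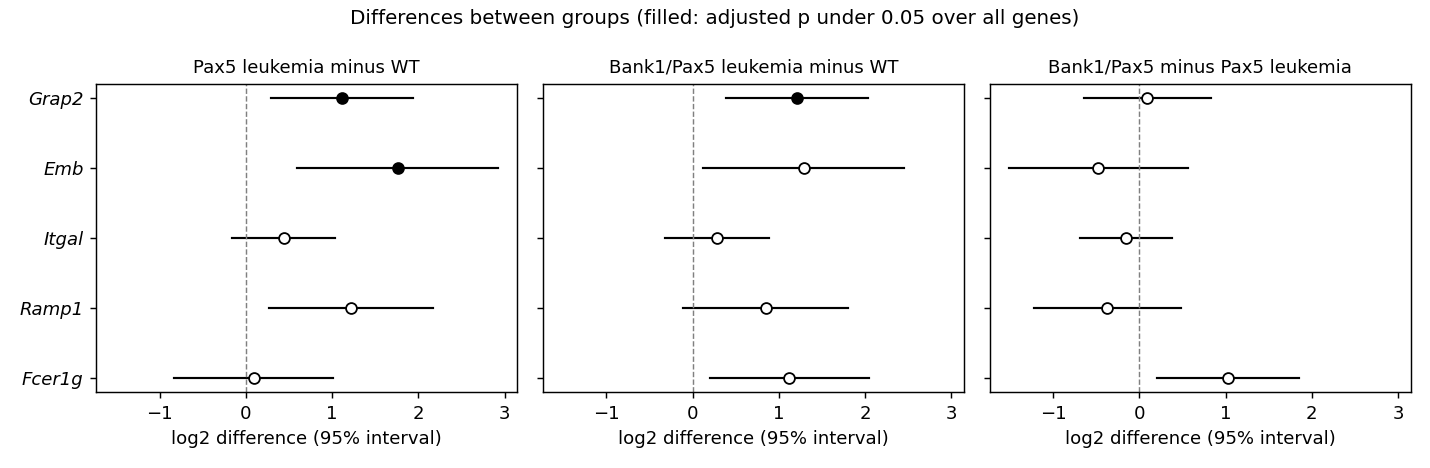
Log2 differences of the 5 genes in 3 panels, each leukemia against WT and then Bank1/Pax5 against Pax5 leukemia, with 95% intervals from the limma fit to 16 arrays. Filled points mark an adjusted p under 0.05 over all genes, which holds for Grap2 against WT in both leukemias and for Emb in Pax5 leukemia.

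Counted over arrays, 11 of 12 leukemias lay above every WT array for Emb and 11 of 12 for Ramp1, a count that 8.81% of all genes reached. The count was 10 of 12 for Grap2 (reached by 12.5% of genes), 7 of 12 for Itgal (23.9%) and 5 of 12 for Fcer1g (33.4%). The arrays below every WT array were Bank1/Pax5 array 2 for Grap2, Emb and Itgal, Bank1/Pax5 array 4 for Ramp1, and Pax5 arrays 1 and 2 for Fcer1g.

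Emb stood at 9.73, 9.70, 9.13 and 9.01 on the 4 WT arrays. In Pax5 leukemia its lowest, median and highest values were 10.36, 11.06 and 11.80, and in Bank1/Pax5 leukemia 8.12, 11.10 and 11.68. All Pax5 leukemias were thus above all WT arrays, and so were 5 of the 6 Bank1/Pax5 leukemias, while Bank1/Pax5 array 2 at 8.12 lay below every WT array. The group means were 11.15 ± 0.54 (SD, n = 6), 10.68 ± 1.30 (SD, n = 6) and 9.39 ± 0.38 (SD, n = 4) in Pax5 leukemia, Bank1/Pax5 leukemia and WT.

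The Emb difference of Pax5 leukemia from WT was 1.76 (SE 0.54, 95% interval 0.60 to 2.92, adjusted p = 0.0303). That call ended in 7 of 26 alternatives, with adjusted p between 0.0508 and 0.0941, among them the fits without WT array 1, 3 or 4 and without Pax5 array 3 or 5. For Bank1/Pax5 leukemia the Emb difference from WT was 1.29 (interval 0.12 to 2.45) and did not pass (adjusted p = 0.113). It passed in 2 of 26 alternatives, the fits without Bank1/Pax5 array 2 (1.80, adjusted p = 0.00065) and with array weights (adjusted p = 0.00997). Over the 26 alternatives it ran from 0.67 to 1.80, with an adjusted p up to 0.460. Between the leukemias Emb differed by -0.47 (interval -1.51 to 0.57, adjusted p = 0.593), and by 0.04 without Bank1/Pax5 array 2. Over the 26 alternatives this difference ran from -1.36 to 0.04, and none passed.

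The proteins that embigin works with include basigin (Bsg) and neuroplastin (Nptn) of its own family and the monocarboxylate transporters Slc16a1, Slc16a3, Slc16a7 and Slc16a8. Of these 6 genes, 1 rose and none fell in limma in either comparison with WT (unadjusted p under 0.05 and lower: 1 gene, Nptn, in Pax5 leukemia and 0 in Bank1/Pax5 leukemia), and the list medians were 0.12 in Pax5 leukemia and 0.18 in Bank1/Pax5 leukemia. Higher calls covered 9.53% and 6.8% of all genes, and lower calls 13.8% and 12.8%. In Pax5 leukemia the gene was Bsg, up by 0.32 (SE 0.08, adjusted p = 0.00941), a call kept in all 26 alternatives. For Bank1/Pax5 leukemia it was Slc16a7 (MCT2), the transporter that embigin is best known to escort, at 2.01 (SE 0.59, adjusted p = 0.0271) from a dim WT mean of 6.54. Its call ended in 7 of 26 alternatives (adjusted p 0.0533 to 0.130), including those without any 1 WT array and without Bank1/Pax5 array 1. With the covariate for markers of other cells it was 1.55 (adjusted p = 0.130). Between the leukemias Nptn was 0.79 higher in Bank1/Pax5 leukemia (adjusted p = 0.0389), which ended in 16 of 26 alternatives (adjusted p 0.0530 to 0.424), 12 of them fits without 1 array: any of the 4 WT arrays, Bank1/Pax5 arrays 4, 5 and 6, and Pax5 arrays 1, 2, 4, 5 and 6. With the covariate the Nptn difference was 0.345 (adjusted p = 0.424). Slc16a1 (MCT1), the widely expressed lactate transporter, read 10.77 ± 0.50 (SD, n = 6) in Pax5 leukemia, 10.43 ± 1.13 (SD, n = 6) in Bank1/Pax5 leukemia and 11.41 ± 0.04 (SD, n = 4) in WT, and neither difference from WT passed (adjusted p = 0.333 and 0.158).

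Ramp1 had as many leukemias above every WT array as Emb, without a call. Its WT values were 8.46, 8.33, 8.30 and 8.12. Pax5 leukemias ran from 8.50 through a median of 9.70 to 10.09, and Bank1/Pax5 leukemias from 7.56 through 9.18 to 10.26. Every Pax5 leukemia lay above the WT arrays, array 2 only just, whereas Bank1/Pax5 array 4 fell below them.

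The Ramp1 difference of Pax5 leukemia from WT was 1.22 (SE 0.45, interval 0.26 to 2.17, adjusted p = 0.0622). It passed in 6 of 26 alternatives, among them the fit to these groups alone (adjusted p = 0.00883) and the fits without Bank1/Pax5 array 2 (0.0444), Bank1/Pax5 array 4 (0.0196) or Pax5 array 2 (0.0343). The difference of Bank1/Pax5 leukemia was 0.85 (interval -0.11 to 1.80, adjusted p = 0.204). It passed in 2 of 26 alternatives, the fits without Bank1/Pax5 array 4 (1.16, adjusted p = 0.0345) and with array weights (adjusted p = 0.0179). Over the 26 alternatives it ran from 0.62 to 1.19, with an adjusted p up to 0.355. The leukemias differed by -0.37 (interval -1.22 to 0.48, adjusted p = 0.610).

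Of 8 measured genes for receptors and ligands of CGRP and adrenomedullin, 1 rose and 2 fell in Pax5 leukemia against WT, and in Bank1/Pax5 leukemia none rose in limma (1, Ramp2, was higher at an unadjusted p under 0.05) and 1 fell. Of all genes, 9.53% rose and 13.8% fell in Pax5 leukemia, and 6.8% and 12.8% in Bank1/Pax5 leukemia. Ramp2, the sister protein that turns the same receptor towards adrenomedullin, was up by 1.09 in Pax5 leukemia (SE 0.27, adjusted p = 0.0106) with a dim WT mean of 6.01. Adm, the adrenomedullin gene, fell by 0.36 there, and both calls held in all alternatives that gave a value. Ramp3 fell by 0.23 (adjusted p = 0.0401), and its call ended in 12 of 25 alternatives (adjusted p 0.0580 to 0.132), with any of WT arrays 1, 3 and 4 or Pax5 arrays 2 to 6 left out. Adm and Ramp3 were dim in all 3 groups. The SE of each difference (0.08 for both) is that of the array intensity, and how closely it follows RNA at dim levels was not tested. Crcp, a protein that couples the CGRP receptor to its signal, fell by 0.59 in Bank1/Pax5 leukemia (adjusted p = 0.0210), and passed in 22 of 26 alternatives, but not without WT array 2 or 3 (adjusted p over the alternatives that ended it 0.0518 to 0.103). With the covariate for markers of other cells the Crcp difference was -0.47 (adjusted p = 0.103). Calcrl, the receptor with which Ramp1 pairs, differed from WT by 0.09 and -0.13 (adjusted p = 0.845 and 0.799).

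Itgal stood at 9.47, 9.15, 8.94 and 9.03 on the WT arrays. Its lowest, median and highest values were 8.96, 9.57 and 10.16 in Pax5 leukemia and 8.31, 9.61 and 9.94 in Bank1/Pax5 leukemia. Both leukemia groups overlapped the WT arrays, and Bank1/Pax5 array 2 was again the lowest array of all. The differences from WT were 0.44 in Pax5 leukemia (interval -0.16 to 1.04, adjusted p = 0.273) and 0.28 in Bank1/Pax5 leukemia (interval -0.32 to 0.88, adjusted p = 0.516), and the leukemias differed by -0.16 (interval -0.69 to 0.38, adjusted p = 0.748). With the mean level of 8 marker lists of other cells as a covariate, the difference of Pax5 leukemia from WT was 0.61 (adjusted p = 0.0431) and that of Bank1/Pax5 leukemia -0.11 (adjusted p = 0.805).

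Itgb2, the beta chain that completes LFA-1, read 10.12 ± 0.71 (SD, n = 6) in Pax5 leukemia, 10.40 ± 0.91 (SD, n = 6) in Bank1/Pax5 leukemia and 9.91 ± 0.24 (SD, n = 4) in WT, and did not pass against WT (adjusted p = 0.754 and 0.460). Of 14 genes for leukocyte integrins, their ligands and their activators, 3 rose and 1 fell in Pax5 leukemia, and 1 rose and 3 fell in Bank1/Pax5 leukemia. Over all genes, 9.53% rose and 13.8% fell in Pax5 leukemia, and 6.8% and 12.8% in Bank1/Pax5 leukemia. The list medians were 0.06 and 0.25. Fermt3, kindlin-3, which activates integrins from inside the cell, rose in both comparisons. The rise was 0.67 with SE 0.18 in Pax5 leukemia (adjusted p = 0.0129) and 0.70 in Bank1/Pax5 leukemia (adjusted p = 0.0116). In Pax5 leukemia this held in all 26 alternatives, and in Bank1/Pax5 leukemia in 24 of 26, but not with the covariate of other cells or without the arrays of low Pax5 (adjusted p 0.0549 to 0.0595).

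Icam1, a ligand of LFA-1, rose by 0.79 in Pax5 leukemia (adjusted p = 0.0182), though not without WT array 3 or with the replicate number as a block (adjusted p 0.0526 to 0.0687). Rassf5, which carries the Rap1 signal to LFA-1, rose there by 0.29 (adjusted p = 0.0166) and lost its call without WT array 3 and in 2 further alternatives (adjusted p 0.0511 to 0.0650). In Bank1/Pax5 leukemia Icam2, another ligand, fell by 1.12 (adjusted p = 0.0397) and the activator Cyth1 fell by 0.83 (adjusted p = 0.0409). Each lost its call without any 1 of the WT arrays and of Bank1/Pax5 arrays 1, 4, 5 and 6, and Cyth1 also without Pax5 array 4, with adjusted p up to 0.192 for Icam2 and 0.207 for Cyth1. Itgad fell in both (-0.33 and -0.42), but the mean over its probe sets gave 0.01 and 0.43, so its direction depends on the probe set. Between the leukemias 1 gene of the list passed, the dim Icam4, at 0.33 (adjusted p = 0.0398), a call that ended in 18 of 25 alternatives (adjusted p 0.0503 to 0.258). The arrays that ended it were every WT and every Pax5 array and Bank1/Pax5 arrays 1 and 5.

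Fcer1g, the signalling chain of Fc receptors, did not pass in any of the 3 comparisons. Its WT arrays read 10.92, 10.64, 10.12 and 10.01. Pax5 leukemias ran from 9.57 through a median of 10.40 to 11.89, and Bank1/Pax5 leukemias from 10.67 through 11.61 to 12.42. Pax5 leukemias spanned the WT range on both sides, and 4 of 6 Bank1/Pax5 leukemias lay above all WT arrays. The group means were 10.51 ± 0.85 (SD, n = 6), 11.54 ± 0.69 (SD, n = 6) and 10.42 ± 0.43 (SD, n = 4) in Pax5 leukemia, Bank1/Pax5 leukemia and WT.

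The Fcer1g difference from WT was 0.09 in Pax5 leukemia (interval -0.83 to 1.01, adjusted p = 0.898) and 1.12 in Bank1/Pax5 leukemia (SE 0.43, interval 0.20 to 2.04, adjusted p = 0.0830). The latter passed without Bank1/Pax5 array 3 or Pax5 array 3 and with array weights (adjusted p 0.0384 to 0.0492). Bank1/Pax5 minus Pax5 leukemia was 1.03 (SE 0.39, interval 0.21 to 1.86, adjusted p = 0.127). Without Pax5 array 3, which held the highest Fcer1g and the lowest Pax5 of its group, it was 1.31 with an adjusted p of 0.0331. With the covariate of other cells it was -0.02 (adjusted p = 0.976).

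**Figure D3:**
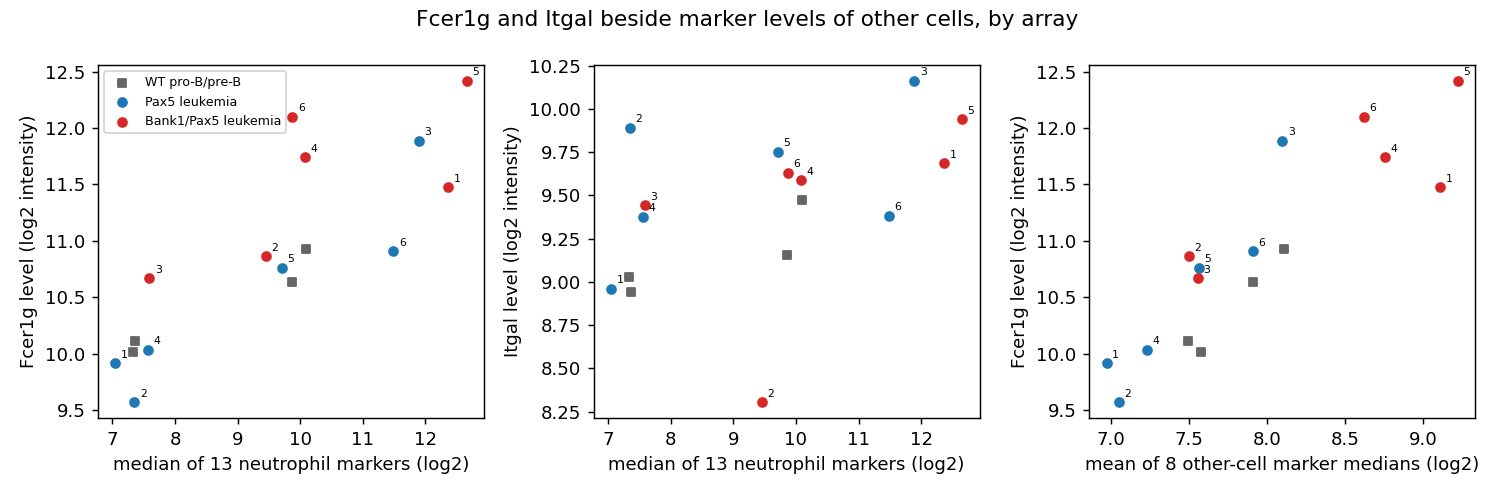
Fcer1g and Itgal levels (log2) of 16 arrays against the median of 13 neutrophil markers, and Fcer1g against the mean of 8 marker lists of other cells, with leukemia points numbered by replicate. Bank1/Pax5 array 5 has the highest neutrophil median (12.66) and the highest Fcer1g (12.42), and Pax5 array 1 the lowest neutrophil median (7.05).

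Fcer1g is itself a gene of myeloid, mast and NK cells, and the markers of other cells are given beside it. The mean of the 8 marker lists ran from 7.49 to 8.11 in WT cells, from 6.98 to 8.10 in Pax5 leukemia and from 7.50 to 9.22 in Bank1/Pax5 leukemia, and Bank1/Pax5 array 5 was the highest in both the mean and Fcer1g. Of 11 monocyte and macrophage markers, 5 rose in Pax5 leukemia and 10 in Bank1/Pax5 leukemia against WT, where 9.53% and 6.8% of all genes rose. Of 13 neutrophil markers, 1 rose in Pax5 leukemia and none in Bank1/Pax5 leukemia in limma, where 1 (Mmp9) had an unadjusted p under 0.05. The part of these cells in the Fcer1g values was tested only through the covariate above, which is built from array levels and not from cell counts. Lists that moved in opposite directions against WT are averaged in it.

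A further list held 16 measured genes for Fc receptors, C-type lectins and signalling proteins related to the gamma chain, not all of which pair with it. Against WT, 2 rose and 1 fell in Pax5 leukemia, and 5 rose and 2 fell in Bank1/Pax5 leukemia, with list medians of 0.16 and 0.30. Shares of all genes were 9.53% higher and 13.8% lower in Pax5 leukemia, and 6.8% and 12.8% in Bank1/Pax5 leukemia. The genes that rose in Bank1/Pax5 leukemia were the Fc receptors Fcgr1, Fcgr3 and Fcgr4 and the C-type lectins Clec4n (Dectin-2) and Clec7a (Dectin-1), which are receptors of myeloid cells. Fcgr3 rose by 2.61 (SE 0.56, adjusted p = 0.00458) and Clec4n by 3.09 (SE 0.53, adjusted p = 0.000826), both in all 26 alternatives and both from a dim WT mean. Fcgr4 was up by 2.75 and passed in 24 of 26. Clec7a was up by 1.75 and passed in 21 of 26, but not with the covariate of other cells (0.96, adjusted p = 0.0537). It also lost its call without WT array 3 or 4, without the arrays of low Pax5 and with the replicate block (adjusted p up to 0.0799). Fcgr1 was up by 1.62, but its call ended in 13 of 26 alternatives (adjusted p 0.0508 to 0.204), among them those without any WT array, Bank1/Pax5 arrays 1, 4, 5 and 6 or Pax5 array 4. With the covariate of other cells Fcgr1 was up by 0.99 (adjusted p = 0.204).

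Fcgr3 and Clec4n were also the 2 that rose in Pax5 leukemia, by 1.76 (adjusted p = 0.0355) and 1.55 (adjusted p = 0.0455). Both calls were narrow there. That of Fcgr3 ended in 8 of 26 alternatives (adjusted p 0.0540 to 0.118), among them those without WT arrays 1, 3 and 4 or Pax5 arrays 2, 3 and 6. That of Clec4n ended in 11 of 26 (adjusted p 0.0522 to 0.106), among them those without any WT array, Bank1/Pax5 arrays 1 and 5 or Pax5 arrays 2, 4, 5 and 6.

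The genes of that list that fell were Syk, the kinase that docks on the gamma chain and on the B cell receptor, and Cd79b, a chain of the B cell receptor itself. Syk fell by 1.44 in Pax5 leukemia (SE 0.21, adjusted p = 0.000218) and fell in Bank1/Pax5 leukemia from a mean of 11.94 to 10.43 (SE 0.21, adjusted p = 0.000165), and Cd79b fell by 1.28 in Bank1/Pax5 leukemia (SE 0.30, adjusted p = 0.00672). These calls held in all 26 alternatives. Tyrobp, the adaptor most akin to the gamma chain, differed by -0.66 and 0.23 from WT (adjusted p = 0.432 and 0.820). Between the leukemias no gene of the list passed in limma, while 3 of 16 had an unadjusted p under 0.05 (Fcgr1, Fcgr4 and Clec4n), all higher in Bank1/Pax5 leukemia. Clec4n passed without dim probe sets and without Bank1/Pax5 array 2 or 3 (adjusted p 0.0165 to 0.0411).

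Grap2 was nearly constant among the WT arrays, at 9.15, 8.83, 9.09 and 9.06. Pax5 leukemias ran from 9.09 through a median of 10.42 to 10.61, and Bank1/Pax5 leukemias from 8.79 through 10.36 to 11.06. In each leukemia group 5 of 6 arrays were above every WT array. The exceptions were Pax5 array 1, within the WT range, and Bank1/Pax5 array 2, just below it.

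Grap2 differed from WT by 1.12 in Pax5 leukemia (SE 0.38, interval 0.30 to 1.94, adjusted p = 0.0484) and by 1.21 in Bank1/Pax5 leukemia (SE 0.38, interval 0.39 to 2.03, adjusted p = 0.0388). The leukemias differed by 0.09 (interval -0.64 to 0.83, adjusted p = 0.895). Both calls sit close to the threshold. In Pax5 leukemia the call ended in 14 of 26 alternatives (adjusted p 0.0537 to 0.132), among them those without any WT array, Bank1/Pax5 arrays 1, 3 and 5 or Pax5 arrays 2, 4, 5 and 6. In Bank1/Pax5 leukemia it ended in 13 of 26 (adjusted p 0.0543 to 0.154), among them those without any WT array or Bank1/Pax5 arrays 1, 3, 4, 5 and 6. Without Bank1/Pax5 array 2 the adjusted p there was 0.00261.

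Of 11 measured signalling partners of Grap2, 2 rose in Pax5 leukemia and 1 in Bank1/Pax5 leukemia against WT, and none fell in limma, while 2 and 1 were lower at an unadjusted p under 0.05. The list medians were -0.05 and -0.06. Beside these counts, 9.53% of all genes rose and 13.8% fell in Pax5 leukemia, and 6.8% and 12.8% in Bank1/Pax5 leukemia. Vav3 rose in both, at 0.80 with SE 0.20 for Pax5 leukemia (adjusted p = 0.0105), which held in all 26 alternatives, and at 0.69 for Bank1/Pax5 leukemia (adjusted p = 0.0260), which held in 18 of 26. There it lost its call without WT arrays 1, 3 and 4 or Bank1/Pax5 array 5, among others (adjusted p 0.0509 to 0.138). Plcg2, the phospholipase of B cell signalling, rose by 0.48 in Pax5 leukemia (adjusted p = 0.0240), but not without WT arrays 2, 3 or 4 or without the arrays of low Pax5 (adjusted p 0.0528 to 0.0659).

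Lcp2 and Lat, the proteins that Gads connects, did not pass in either comparison with WT. Lcp2 differed by 0.45 in Pax5 leukemia (adjusted p = 0.487) and by 1.15 in Bank1/Pax5 leukemia (adjusted p = 0.0848), and the latter passed without Bank1/Pax5 array 3 and with array weights (adjusted p 0.0133 to 0.0366). Lat differed by 0.28 and 0.89 (adjusted p = 0.643 and 0.143). Between the leukemias Plcg2 was lower in Bank1/Pax5 leukemia by 0.54 on the log2 scale (a difference of -0.54, adjusted p = 0.0220), a call that ended in 3 of 26 alternatives, the leukemias alone among them (adjusted p 0.0708 to 0.259). Grb2, a relative of Gads, was 0.24 higher there (adjusted p = 0.0414), and its call ended in 19 of 26 alternatives (adjusted p 0.0550 to 0.243), among them those without any WT array, Bank1/Pax5 arrays 1, 3, 5 and 6 or Pax5 arrays 1, 2 and 4.

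**Figure D4:**
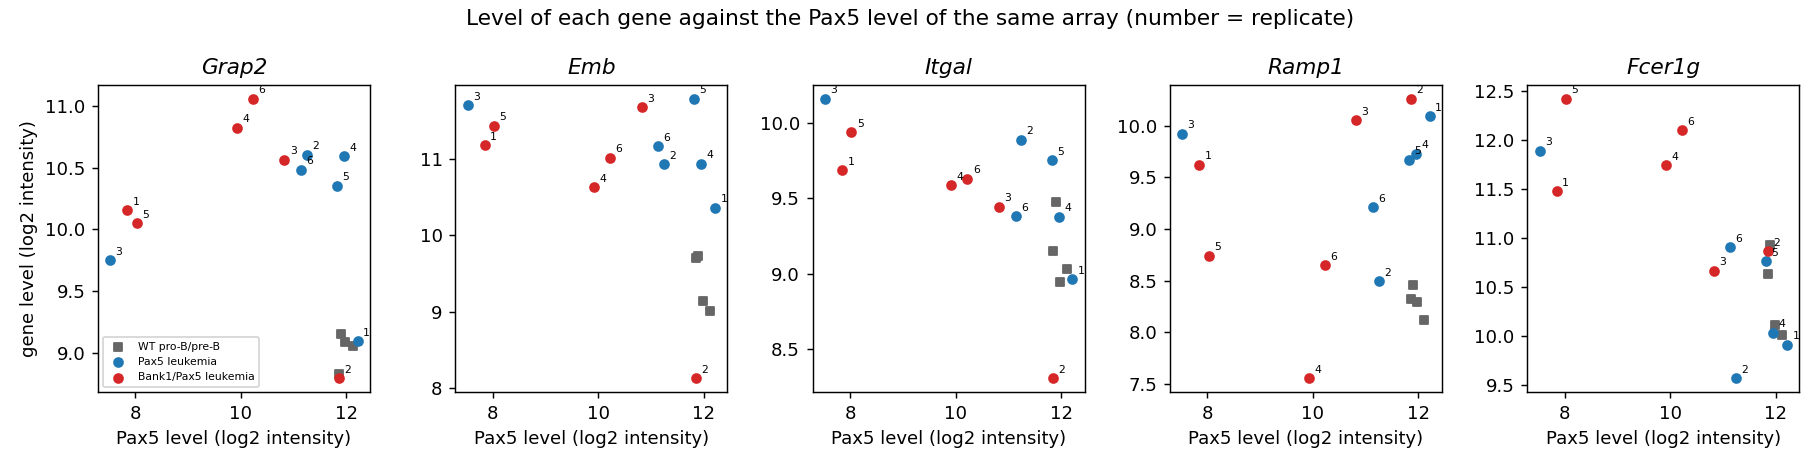
Log2 level of each of the 5 genes against the log2 Pax5 level of the same array, with 4 WT arrays as squares and 12 leukemias as numbered points. Pax5 array 1 has the highest Pax5 (12.21), with Grap2 at 9.09 among the WT arrays and Ramp1 at 10.09 above them.

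Both leukemia groups carry the same Pax5 loss, but the Pax5 level differed widely between arrays within each group. Bank1/Pax5 minus Pax5 leukemia was -1.20 in Pax5 and did not pass in limma (interval -2.90 to 0.50, adjusted p = 0.390). Each member was also fitted on the Pax5 level across the 12 leukemias, with a term for the group. None of the 5 members passed over all genes in limma, where 21 of 19937 genes (0.105%) were called, 0.00502% with a positive and 0.1% with a negative slope, and 2 members (Itgal and Fcer1g) had an unadjusted p under 0.05. For 1 log2 unit more of Pax5, Itgal was lower by 0.23 (slope -0.23, SE 0.06, interval -0.37 to -0.09, adjusted p = 0.174). The Fcer1g slope was -0.34 (SE 0.10, interval -0.56 to -0.12, adjusted p = 0.198) and that of Emb -0.33 (interval -0.67 to 0.02, adjusted p = 0.502). The Emb slope was -0.12 without Bank1/Pax5 array 2. Grap2 had a slope of -0.03 (interval -0.32 to 0.26, adjusted p = 0.961) and Ramp1 of 0.07 (interval -0.27 to 0.41, adjusted p = 0.928). The median slope of the 13 neutrophil markers was -0.90, with none called in limma and all 13 lower with more Pax5 at an unadjusted p under 0.05. Their part in the members' slopes was not tested on its own. With the covariate of 8 lists of other cells, neutrophils among them, the slopes were -0.07 for Fcer1g and -0.17 for Itgal (adjusted p = 0.999 for both).

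The arrays with low Pax5 did not hold the highest level of every member. By rank among the 12 leukemias, Pax5 array 3, with the lowest Pax5 (7.52), had the highest Itgal and the 2nd highest Emb, but the 10th highest Grap2. Bank1/Pax5 arrays 1 and 5, the next in Pax5, ranked 8th and 9th in Grap2. At the other end, Pax5 array 1, with the highest Pax5, ranked 11th in Grap2, Emb, Itgal and Fcer1g but 2nd in Ramp1. Bank1/Pax5 array 2, with the 3rd highest Pax5 (11.85), ranked last in Grap2, Emb and Itgal and first in Ramp1.

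The 3 low arrays stand apart from the other 9 in Pax5. They also held the highest neutrophil medians of the 12 leukemias, at 12.36 and 12.66 on Bank1/Pax5 arrays 1 and 5 and 11.89 on Pax5 array 3. Their mast cell and basophil medians were the highest too (7.23, 7.61 and 7.23 in the same order). Less Pax5 RNA per cell and more RNA of such cells cannot be told apart on these arrays. Among the other 9 arrays the slopes were steeper. Grap2 had a slope of -1.07 (SE 0.24, adjusted p = 0.157), Emb of -1.07 (SE 0.46, adjusted p = 0.311), Itgal of -0.63 (SE 0.16, adjusted p = 0.179) and Fcer1g of -0.51 (SE 0.29, adjusted p = 0.422). Ramp1 ran the other way, at 1.27 (SE 0.25, adjusted p = 0.137). None passed, and 1 gene in all was called in that fit. The 9 arrays include Bank1/Pax5 array 2 and Pax5 array 1, the extremes named above.

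Other genes that Pax5 is known to repress were called in both directions. Of 17 measured, 1 rose and 2 fell in Pax5 leukemia (median 0.36), and 3 rose and 1 fell in Bank1/Pax5 leukemia (median 0.38) against WT. Over all genes, 9.53% were called higher and 13.8% lower in Pax5 leukemia, and 6.8% and 12.8% in Bank1/Pax5 leukemia. The counts of the list were not tested against these shares. Csf1r, the receptor for macrophage colony-stimulating factor, rose by 1.95 in Pax5 leukemia (SE 0.42, adjusted p = 0.00403) and by 2.62 in Bank1/Pax5 leukemia (SE 0.42, adjusted p = 0.000532). Ccl9, a chemokine of myeloid cells, rose by 2.69 (adjusted p = 0.00433) and Jchain, the joining chain of secreted antibodies, by 3.67 (adjusted p = 0.00595) in Bank1/Pax5 leukemia. The killer cell protein perforin, Prf1, fell by 1.40 and by 0.97 (adjusted p = 5.07e-06 and 0.00012). These calls held in all 26 alternatives, the covariate of other cells among them. That covariate averages lists that moved in opposite directions, so it cannot adjust for NK or macrophage content on its own. Its group medians were 7.75 in WT cells, 7.40 in Pax5 leukemia and 8.69 in Bank1/Pax5 leukemia. Against WT, the median difference was -2.51 and -1.01 for NK markers and 0.94 and 2.63 for monocyte and macrophage markers. The part of these cells in Prf1, Csf1r and Ccl9 was not tested on its own. Ccl3, a chemokine, fell by 2.70 in Pax5 leukemia (adjusted p = 0.0186), but did not pass without WT array 1 (adjusted p = 0.0528).

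The genes that Pax5 is known to activate were called in 1 direction. Of 18 measured, 8 fell in Pax5 leukemia and 10 in Bank1/Pax5 leukemia, and none rose in limma, nor was any higher at an unadjusted p under 0.05 (0 of 18 in both). Lower calls covered 13.8% and 12.8% of all genes in these comparisons. Fcrla, an Fc receptor-like protein of B cells, differed from WT by -4.12 in Pax5 and -3.77 in Bank1/Pax5 leukemia. Ikzf3, the lymphoid factor Aiolos, differed by -3.74 and -4.69, and all 4 of these differences passed. The median differences of the list were -1.77 and -2.42, beside -0.05 and -0.03 for all genes and -0.97 and -1.28 for the 11 B cell precursor markers, of which 2 fell in each comparison. Cd79a, Blnk and Ebf1 stand on both lists, and less B cell RNA in whole marrow and less RNA of these genes per cell cannot be told apart. None of the 18 passed on the Pax5 slope, where 5 had an unadjusted p under 0.05, all of them higher with more Pax5 (Cd79a, Bach2, Irf4, Vpreb3 and Rag2). Of the 17 repressed genes none passed on the slope either, with 6 at an unadjusted p under 0.05, all of them lower with more Pax5.

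Each member had other genes that followed it closely over the 12 leukemias once the mean of each group was taken out. The 3 with the highest Pearson correlation were Gng12 (0.97), Camk2g (0.92) and Gcnt1 (0.92) for Emb, and Mapk8, Olfr851 and Ccdc18 (0.93 each) for Ramp1. For Itgal they were Cybb, Dennd10 and Fbh1 (0.93 each), and for Fcer1g they were Gsn (0.98), Adam8 (0.96) and L1cam (0.94). Grap2 was followed most closely by Pim1 (0.91), Limd1 (0.90) and Cish (0.89). The 12 arrays share their normalization and the cell content given above, and these were the highest of all genes on the arrays, so the values are descriptions without a test.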

How the data were processed

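RNA was extracted with Trizol and labelled with biotin, per the labels' protocols. The authors made log2 probe set intensities with RMA through the oligo package, per the submitters' processing notes, and the deposited log2 values were used without further scaling. No version, filter or batch is stated in the labels used. The platform annotation assigned 1 gene to 21789 of 35556 probe sets, several to 1621 and none to 12146. The probe set with the highest mean was kept where a gene had several, which left 19938 genes. A group mean under 6.96, the median of probe sets naming 1 gene, is called dim.

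The test was limma 3.58.1 (R 4.3.3) with 1 mean per group and all 16 arrays. All groups shared the estimate of spread of a gene, so arrays of every group enter each comparison. The spread of each member was smallest in WT cells. For Grap2 the SD was 0.14 in WT, 0.61 in Pax5 leukemia and 0.81 in Bank1/Pax5 leukemia. Calls needed a two-sided p, adjusted by Benjamini-Hochberg over every gene tested, under 0.05. SE and 95% intervals are moderated ones. The Pax5 slope was fitted over the 12 leukemias with a group term. Labels call the arrays biological replicates, except that 3 WT mice are named for 4 arrays. The procedure was run on simulated data in which genes varied independently and with the same spread in all groups. That run does not cover unequal spread or cell content shared between genes. Tables were made with Python 3.11.15 and pandas 2.3.3.

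The members and gene lists were chosen with earlier results of these data known, as were the covariate of other cells and the fit without arrays under 9 in Pax5. Named genes were the members, Pax5, up to 3 genes of each list with the smallest p in a comparison, and for each member the 3 genes most alike. Other list genes were named after their values were seen, so that short counts are complete, as were Bank1, the marker genes Siglech and Ncr1, and the direct partners Calcrl, Itgb2, Lat, Lcp2, Slc16a1 and Tyrobp. Flt3 stands on both the dendritic cell and the Pax5-repressed list and was left out of the former for array levels. Cd79b stands on the B cell precursor and gamma chain lists, and Cd79a, Blnk and Ebf1 on the B cell precursor and Pax5-activated lists. The alternatives were a filter on dim probe sets, array weights, a robust fit with a variance trend, the mean of a gene's probe sets, median centring, cyclic loess, the replicate number as a block, other sets of arrays, the covariate, and each array left out in turn.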

Additional observations from a re-analysis of the deposited data

Results flagged for a closer look

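Of 18 sets of values tested (6 genes in 3 groups), 3 held an array far from the others of its group. By chance about 1 in 20 independent sets would. These sets share the same arrays, and the Emb and Itgal flags fall on 1 array, so the count is not compared with that rate. Emb read 8.12 on Bank1/Pax5 array 2, the lowest of 6, with the next array at 10.64. Itgal read 8.31 on the same array, with the next at 9.44. Pax5 read 7.52 on Pax5 array 3, with the next array of that group at 11.14. Array 2 of Bank1/Pax5 leukemia was also the highest of its group in the B cell precursor median (12.47) and in Pax5 (11.85).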

How the results depend on the processing

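Grap2 and Emb kept their higher direction against WT in all 26 alternatives of each comparison, while their calls did not. Members called in Pax5 leukemia against WT numbered 2, and 1 with cyclic loess, 0 with the replicate block, 0 without the arrays of low Pax5, and 0 to 3 with 1 array left out. In Bank1/Pax5 leukemia against WT the count of members was 1, and 4 with array weights, 0 with the replicate block, without the arrays of low Pax5, with the covariate or with only these groups, and 0 to 2 with 1 array left out. Between the leukemias it was 0, and 0 to 1 with 1 array left out, and on the Pax5 slope it was 0 throughout. The replicate block gave Grap2 differences of 0.97 (adjusted p = 0.132) and 1.07 (0.114) and an Emb difference of 1.54 (0.0941). The covariate of other cells ended the calls of Vav3, Icam2 and Cyth1 in Bank1/Pax5 leukemia against WT (adjusted p = 0.138, 0.192 and 0.207). Between the leukemias it ended those of Plcg2, Grb2, Icam4 and Bank1 (adjusted p = 0.259, 0.243, 0.258 and 0.168). Replicate numbers did not pair the arrays: over 14 same-numbered pairs the correlation of deviations lay between -0.38 and 0.32, with 6 pairs over 0.1, and 2 of 16 arrays correlated best with their own number.

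Over all genes, calls in Pax5 leukemia against WT went from 4655 to 8104 with array weights and to 3072 to 5560 with 1 array left out. In Bank1/Pax5 leukemia they went from 3899 to 6486 with array weights, 2542 with the block and 2678 to 4531. Between the leukemias they went from 1336 to 696 with the block, 659 without the arrays of low Pax5, 178 with the covariate, 446 with the leukemias alone and 725 to 1742. On the slope they went from 21 to 67 without dim probe sets, 52 with the variance trend, 234 with array weights, 0 with the block, 1 without the arrays of low Pax5, 0 with the covariate, 399 with all 16 arrays, 223 without a group term, 1 without the 2 arrays farthest in Pax5 and 0 to 173. Scaling moved the split into higher and lower, from 1901 and 2754 to 2021 and 1953 with median centring (Pax5 leukemia against WT), and with cyclic loess from 1356 and 2543 to 2034 and 2012 (Bank1/Pax5 leukemia against WT) and from 340 and 996 to 451 and 588 (between the leukemias).

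Directions turned where differences were small. Against WT, Fcer1g in Pax5 leukemia was -0.17 with the block, -0.19 without the arrays of low Pax5 and -0.19 to 0.28 with 1 array left out, and Itgal in Bank1/Pax5 leukemia was -0.11 with the covariate. Itgad was 0.0076 and 0.43 with the mean of its probe sets. Between the leukemias, Grap2 was -0.0136 with array weights, the covariate gave Grap2 -0.22, Ramp1 0.13, Fcer1g -0.021 and Pax5 0.80, and leaving out 1 array gave -0.12 to 0.38 for Grap2, -0.67 to 0.0391 for Emb and -0.28 to 0.0705 for Itgal. On the slope, the covariate gave Grap2 0.21 and Ramp1 -0.29, leaving out 1 array gave -0.19 to 0.12 for Grap2 and -0.0377 to 0.27 for Ramp1, and Prss34, a basophil marker, was 0.0116 without the arrays of low Pax5. The causes were not tested. How closely the intensity of dim genes follows their RNA was not tested.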
